A study of Mus musculus with 9 samples.

Results

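The genes examined here are 32 genes of coagulation and fibrinolysis: the clotting factors, their inhibitors, the enzymes that dissolve clots, the receptors and cofactors of the vessel wall, and both enzymes of the vitamin K cycle. They were chosen by name from known function. All 32 were found among the 27179 genes of the deposited table, and 31 passed the minimum of a mean of 10 normalized counts that a gene needed to be tested. A normalized count is the number of reads of a gene in a library divided by that library's size factor. The samples are liver pieces (m-lobe) from wild-type C57BL/6J mice, each injected behind the eye at 17 months of age with an AAV8 vector, at a dose of 3e11 vector genomes per mouse, and sampled 3 weeks later. All animals received saCas9, a small Cas9 nuclease, under the hepatocyte-active TBG promoter together with a U6-driven guide RNA. In 5 animals the guide was directed at Ccnd1, which encodes cyclin D1 (sgCcnd1), and in 4 controls at the Rosa26 locus (sgRosa26), so that the controls carried the vector and a nuclease cutting at another site. The nuclease is thus driven in hepatocytes, whereas poly(A) RNA was read from whole tissue. The labels give neither the sex of the animals nor a batch. The letters A to D stand here for the control libraries and E to I for those of the targeted animals, in the order of the table's columns, and each column was matched to its group only.

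As background, blood clotting is a chain of serine proteases that ends with thrombin (from F2) cutting fibrinogen into fibrin. Tissue factor (F3) with factor VII starts the chain, the contact system (F12, plasma prekallikrein and kininogen) can also start it, and factors V and VIII act as cofactors. Antithrombin, heparin cofactor II, the protein Z system, protein C and tissue factor pathway inhibitor hold it back, and plasmin, made from plasminogen by the activators Plat and Plau, dissolves the clot. Hepatocytes make most of the circulating factors, and several of these need a vitamin K dependent carboxylation of their glutamates, while factor VIII, von Willebrand factor, thrombomodulin and the protein C receptor are products of endothelial cells.

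The libraries held 10840595 to 20176201 gene-assigned reads. Ccnd1, the targeted gene, was at 625 to 867 normalized counts in the controls and at 325 to 428 in sgCcnd1, with a log2 difference of -1.03 (limma adjusted p = 0.0116), and was the only gene of 12993 tested that passed an adjusted p of 0.05. With 1 library left out at a time its log2 difference was -1.11 to -0.96, and without B, D, F, H or I its limma adjusted p was 0.0558 to 0.0857, which missed the threshold. The tissue was liver by its markers: Alb stood at 1247278 to 1677964 normalized counts. Library H lacked reads of the Y-linked genes Eif2s3y, Kdm5d and Uty, which the other libraries had. The Y-linked gene Ddx3y stood at 2.00 normalized counts in H and at 810 to 1154 in the others. H belongs to sgCcnd1, so Y-linked reads were not balanced between the groups. Without H, 0 members passed the test, as with it. Of the marker lists for other cells, no gene passed the adjusted threshold. At an unadjusted limma p under 0.05, where 5.74% of all genes tested were lower and 11% passed in either direction, 5 of 13 Kupffer and macrophage genes, 2 of 7 tested monocyte and neutrophil genes, 4 of 7 tested T, NK and B cell genes, 3 of 10 stellate and fibroblast genes and 1 of 8 cholangiocyte and mesothelial genes were lower in sgCcnd1. The 5 were Cd68, C1qa, C1qc, Mpeg1 and Lyz2. The Kupffer cell markers Clec4f, Cd5l, Timd4, Marco and Vsig4 did not reach that level. None of the 12 hepatocyte, 15 endothelial, 4 tested red cell and 4 tested platelet genes reached that level in either direction, nor did any of 22 acute-phase genes (13 with differences above 0, 9 below, median 0.017).

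Within the liver, the members spanned a very wide range of levels. Per kilobase of exon, the scale on which different genes can be compared, Kng1 (kininogen, the source of bradykinin) stood at 11786 ± 2098 normalized counts in the controls (SD, n = 4) and Plg (plasminogen) at 10821 ± 2018. These 2 lay within each other's spread. Hrg (histidine-rich glycoprotein, a carrier protein that binds plasminogen and heparin) followed at 8895 ± 1419, Serpinf2 (alpha2-antiplasmin) at 6457 ± 905 and F2 (prothrombin) at 6096 ± 373. Serpinc1 (antithrombin) was at 3945 ± 356 and Cpb2, a carboxypeptidase that shields fibrin from plasmin, at 2735 ± 274. Of the secreted liver proteins the lowest was F11 (factor XI) at 459 ± 114, near its chromosomal neighbour Klkb1 (plasma prekallikrein) at 544 ± 77.5. The genes of the vessel wall and of plasminogen activation were far lower: F3 was at 24.2 ± 9.84, Tfpi at 16 ± 4.09, Plau at 14.3 ± 6.41 and Plat at 4.11 ± 1.54. Serpina5 (protein C inhibitor), made by human liver but in mice mainly by the reproductive tract, had at most 5 reads in a library and was not tested. A total of 22 members had a mean above 500 normalized counts. They are the 20 secreted proteins of the liver and both vitamin K enzymes, and the next member below them, F8, had 155. The 32 members together took 1.63% ± 0.172 of all reads in sgRosa26 (SD, n = 4) and 1.65% ± 0.131 in sgCcnd1 (SD, n = 5).

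**Figure D1:**
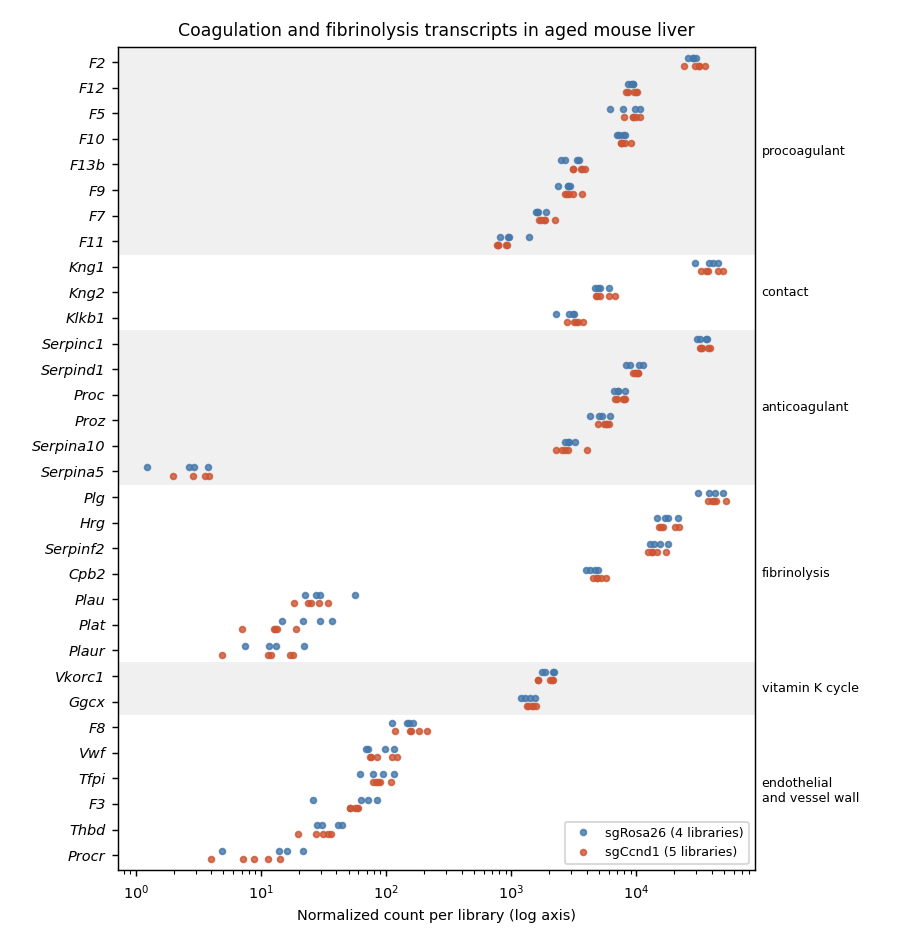
Normalized count of each of the 32 members (log axis) in every library, by role, with the 4 sgRosa26 libraries in blue above the 5 sgCcnd1 libraries in orange; the value of 0 for Serpina5 in library H cannot be drawn. The points of the groups overlap for all 32 members, and the 22 abundant members lie well to the right of the vessel wall genes.

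By the levels of single members, a pair of libraries stood apart, 1 in each group. Control library B held the lowest of the 9 values for 13 of the 22 abundant members, where 28.7% of all genes above 500 normalized counts were lowest in B. In sgCcnd1 library G, 15 of the 22 had their highest value, against 14.4% of all such genes. The median deviation of the 22 members from their own mean over the 9 libraries was -0.21 on the log2 scale in B and 0.25 in G, and between -0.076 and 0.10 in the other 7. F5, the cofactor of the prothrombin-cutting complex, was the abundant member that lay furthest down in B, at 6205 normalized counts, with 7875 to 10661 elsewhere. Serpina10, the inhibitor that works with protein Z, lay furthest up in G, at 4019 against 2268 to 3244. Not all abundant members took part: Vkorc1 was highest in B, and F11 in G was among the lower values. A list of 22 acute-phase genes, which liver makes in response to inflammatory cytokines, summed to 285218 normalized counts in B, the lowest of the 9, and to 549603 in G, the highest, with 510620.4 in A and 334939 to 387999 in the others. Fga, Fgb and Fgg, the fibrinogen chains and so clotting genes themselves, made up 129315 of the sum in B and 288895 in G. Without these 3, the other 19 genes summed to 155903 in B and 260708 in G, still the lowest and the highest, but close to 157649 in E and 254206 in A. Not all of the list followed: 10 of its 22 genes were lowest in B and 12 highest in G, while the serum amyloid A genes Saa1 (1207 normalized counts) and Saa2 (730.2) were highest in B. In A, the library with the next highest acute-phase sum, 17 of the 22 members were above their mean. Whether the acute-phase state of an animal set these levels was not tested.

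**Figure D2:**
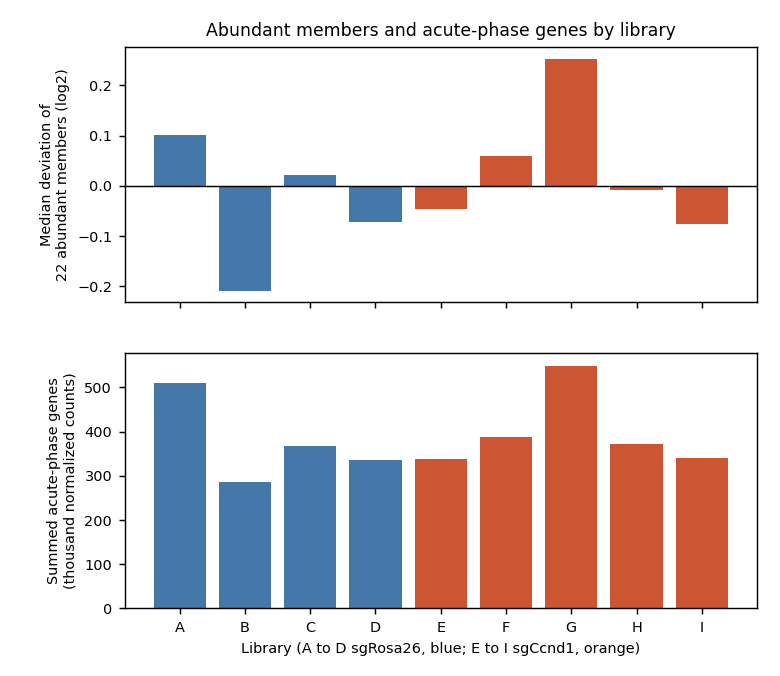
Median log2 deviation of the 22 abundant members from their mean over 9 libraries (upper bars) and summed normalized counts of 22 acute-phase genes (lower bars, in units of 1000), for each library, sgRosa26 in blue and sgCcnd1 in orange. B is lowest and G highest in both panels.

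**Figure D3:**
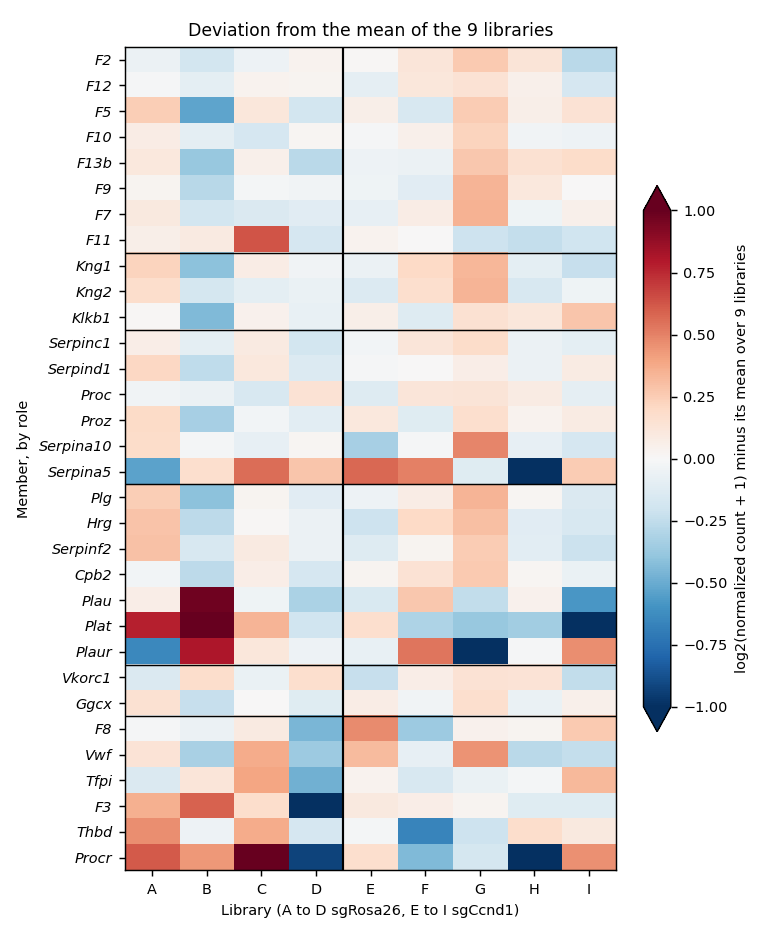
Deviation of each member from its own mean over the 9 libraries, on the log2(normalized count + 1) scale, with members in rows by role and libraries in columns; red is above the mean, blue below, and the colours saturate at 1. Column B is mostly blue and column G mostly red in the rows of the secreted liver proteins, while the low genes of fibrinolysis and the vessel wall vary more from library to library.

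Between the groups, no clotting or fibrinolytic transcript differed beyond the threshold. None of the 31 members tested passed limma's adjusted p of 0.05 in either direction, where 0.0077% of all genes did. Counts of 0 were also given by edgeR (background 0.0077%) and by DESeq2 on the recovered reads (background 0.976%). DESeq2 left the adjusted p of 3 members undefined, Plat among them, so its count could not have included Plat. At an unadjusted limma p under 0.05 there was 1 member, Plat, which was lower, where 11% of all genes passed in either direction and 5.74% were lower. With edgeR there were 2 at an unadjusted p under 0.05 (Plat and F11; background 10.6%), and with DESeq2 also 2 (background 10.2%). No member had groups that did not overlap, against 3.89% of all genes. Of the 31, 21 had a log2 difference above 0 and 10 below, with a median of 0.058 against 0.014 over all genes tested, 52.9% of which lay above 0. The members are mostly abundant genes, and among the 4011 genes with a mean above 500 the median was 0.058 and 66.9% lay above 0. Of the 22 members in that class 18 lay above 0, at a median of 0.077, and of the 9 low members tested 3 did, at a median of -0.11. The median moved with single libraries. It was 0.024 without G, 0.029 without B, 0.033 without D, 0.038 without F and 0.11 without A. Without both B and G it was -0.008, with 12 members above 0 and 19 below. B and G were picked as the low control and the high sgCcnd1 library in these genes. Dropping both therefore had to lower the difference of any gene lowest in B and highest in G. Such drops, here and below, are no test of those differences.

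The intervals show what size of difference these 9 animals leave room for. For 25 of the 31 members (80.6%, against 71.1% of all genes tested) the 95% interval of the log2 difference lay within 1.5-fold in both directions, and for 29 within 2-fold (background 91.8%). The intervals are for 1 gene at a time. Below, a pair of means ± SD gives sgRosa26 (n = 4) first and sgCcnd1 (n = 5) second, and parentheses after it hold the log2 difference (sgCcnd1 minus sgRosa26) and its 95% interval. F12 and F10 had the narrowest, and the 6 members whose intervals reached past 1.5-fold were F3, Plat, Plau, Plaur, Thbd and Procr, all of them low in these libraries.

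**Figure D4:**
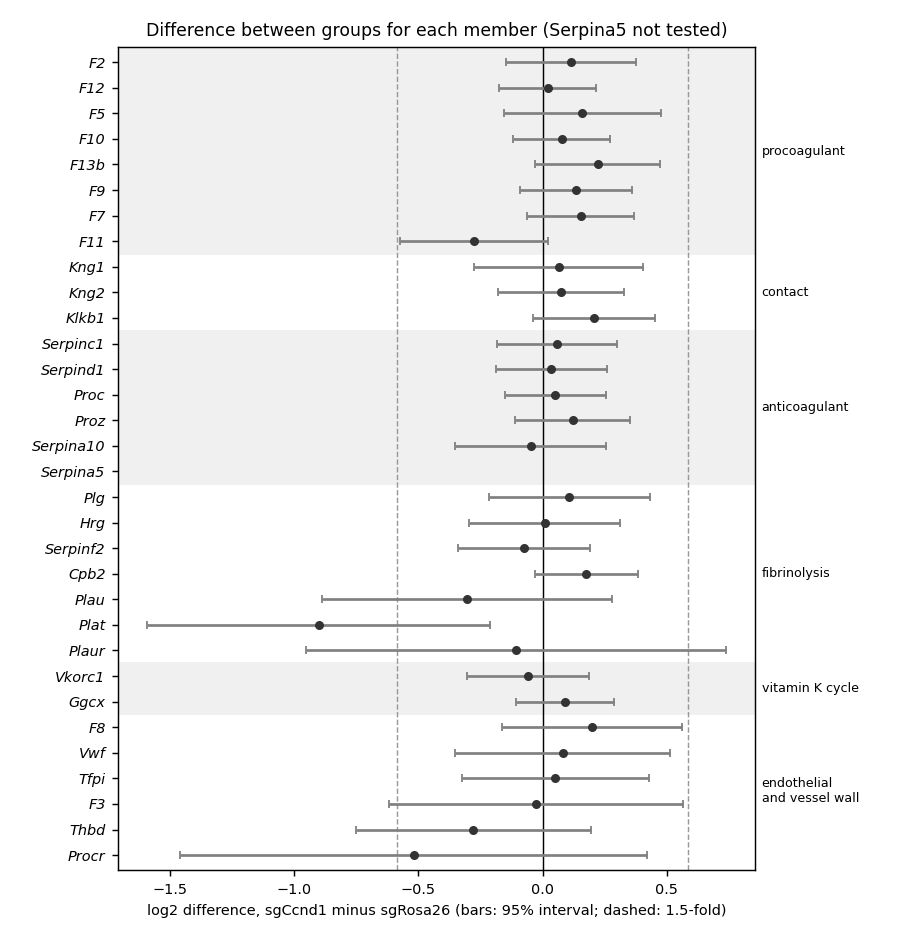
Log2 difference between groups (sgCcnd1 minus sgRosa26) of the 31 members tested, with the 95% interval of limma as bars and 1.5-fold changes as dashed lines. Plat is the only member whose interval does not include 0, and the intervals of the abundant members are short beside those of the low ones.

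Among the procoagulant factors, 7 of 8 had differences above 0, where 66.9% of all genes above 500 normalized counts did, and 0 passed the test. The signs of F5 and F9 turned without B and G, that of F10 with quantile normalization, and that of F12 in 6 of 21 alternatives. F2, the precursor of thrombin, was at 28119.8, 25746, 28255 and 29908 normalized counts in libraries A to D and at 29404, 31854, 35075, 31931 and 24218 in E to I. Its highest value was in G and its lowest in I, both in the sgCcnd1 group, so that the 4 controls lay inside the range of the treated animals. The log2 difference was 0.11 (95% interval -0.15 to 0.38, limma adjusted p = 0.751). With 1 library left out at a time it ran from 0.061 (without G) to 0.19 (without I), and without both B and G it was 0.021. F13b, the carrier subunit of the fibrin-crosslinking factor XIII, had the difference furthest above 0 of all members, 0.22 (-0.029 to 0.47, limma adjusted p = 0.504), with 2986 ± 482 normalized counts in sgRosa26 (SD, n = 4) and 3464 ± 349 in sgCcnd1 (SD, n = 5). It was singled out after its values were seen, and without B and G its difference was 0.10. F5 (8595 ± 1961 and 9452 ± 969 normalized counts) had the widest interval of the abundant procoagulants, -0.16 to 0.48. F12, the first protease of the contact system, was the steadiest member of this role in the controls, at 9147 ± 374 in sgRosa26 and 9304 ± 846 in sgCcnd1, and its difference was 0.021 (-0.18 to 0.22).

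Factor X, the protease that cuts prothrombin, and factor VII, which activates it when bound to tissue factor, are encoded side by side on chromosome 8, with F7 at chr8:13026034-13035809 and F10 at chr8:13037308-13056676 on the plus strand of GRCm38, 1.5 kb apart, and Proz (protein Z) follows 4.24 kb further on. The F7 to F10 proportion varied little between animals, from 0.208 to 0.248 over the 9 libraries, and that of F10 to Proz more, from 1.31 to 1.70. This was not particular to F7 and F10. Kng2 to Hrg, 24.2 kb apart on chromosome 16, also kept to a narrow range, 0.279 to 0.327. The ratio of F7 to F10 normalized counts was 0.222 ± 0.0122 in sgRosa26 (SD, n = 4) and 0.234 ± 0.0129 in sgCcnd1 (SD, n = 5), and that of F10 to Proz was 1.48 ± 0.189 and 1.43 ± 0.133. The log2 difference between groups was 0.15 for F7 (-0.063 to 0.37), 0.078 for F10 (-0.12 to 0.27) and 0.12 for Proz (-0.11 to 0.35), with limma adjusted p-values of 0.589, 0.773 and 0.693. F9, the X-linked factor IX, also a vitamin K dependent protease, was at 2748 ± 251 and 3025 ± 387 normalized counts (0.13, -0.091 to 0.36).

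The promoters of F7 (chr8:13025784-13026083, plus strand) and F10 (chr8:13037058-13037357, plus strand) are printed because these neighbours had similar proportions in all 9 livers. The sequences are from RefSeq (GRCm38.p6), from 250 bases before the gene's start to 50 after, and capitals mark matches to the motifs given further on.
F7: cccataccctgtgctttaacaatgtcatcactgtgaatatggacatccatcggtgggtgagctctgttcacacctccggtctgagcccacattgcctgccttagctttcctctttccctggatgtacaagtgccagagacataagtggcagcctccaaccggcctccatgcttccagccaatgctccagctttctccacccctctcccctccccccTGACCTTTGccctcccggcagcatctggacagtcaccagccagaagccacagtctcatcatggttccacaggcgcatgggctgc
F10: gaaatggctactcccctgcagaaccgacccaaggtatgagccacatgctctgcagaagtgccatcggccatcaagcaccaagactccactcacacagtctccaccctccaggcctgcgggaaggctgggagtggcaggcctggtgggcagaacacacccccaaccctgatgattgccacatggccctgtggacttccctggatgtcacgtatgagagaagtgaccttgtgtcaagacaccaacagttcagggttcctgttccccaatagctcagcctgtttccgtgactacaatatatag
The F7 promoter held 1 match, to the HNF4-type motif, which began 34 bases before the start, and the F10 promoter held none.

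F11 was the exception among the procoagulants. It stood at 944, 965, 1398 and 807 normalized counts in libraries A to D and at 929, 906, 784, 767 and 788 in E to I. Library C was the highest, D was the lowest control, and 3 of 5 sgCcnd1 libraries lay below every control. The log2 difference was -0.28 (-0.57 to 0.024, limma adjusted p = 0.490), and without library C it was -0.12 (limma adjusted p = 0.709). Klkb1 lies 4.66 kb from F11 on the minus strand of chromosome 8 (F11 at chr8:45241174-45262031, Klkb1 at chr8:45266689-45294859), and its protein, plasma prekallikrein, is closely related to factor XI. Klkb1 was at 3087, 2263, 3154 and 2913 in A to D and at 3189, 2798, 3409.9, 3313 and 3711 in E to I, above every control in 4 of 5 sgCcnd1 libraries. Its difference had the opposite sign, 0.21 (-0.037 to 0.45, limma adjusted p = 0.521), and was 0.10 without library B. The ratio of F11 to Klkb1 normalized counts was 0.363 ± 0.0839 in sgRosa26 (SD, n = 4; 0.277 to 0.443) and 0.258 ± 0.0475 in sgCcnd1 (SD, n = 5; 0.212 to 0.324). The ranges overlapped, the pair was chosen after its values were seen, and its ratio was not tested.

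**Figure D5:**
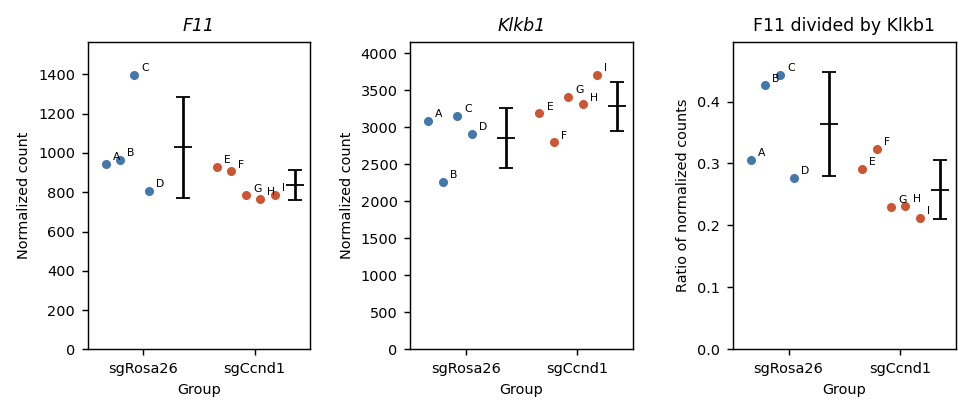
Normalized counts of F11 and of its neighbour Klkb1, and the ratio of the 2, in each library (letters) of sgRosa26 (blue) and sgCcnd1 (orange), with the mean and SD of each group at its right. F11 is mostly lower and Klkb1 mostly higher in sgCcnd1, and the groups overlap in all 3 panels.

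The promoters of this pair, F11 (chr8:45261982-45262281, minus strand) and Klkb1 (chr8:45294786-45295085, minus strand), are shown since the differences of the 2 genes had opposite signs, from the same RefSeq table and written 5′ to 3′ along the gene.
F11: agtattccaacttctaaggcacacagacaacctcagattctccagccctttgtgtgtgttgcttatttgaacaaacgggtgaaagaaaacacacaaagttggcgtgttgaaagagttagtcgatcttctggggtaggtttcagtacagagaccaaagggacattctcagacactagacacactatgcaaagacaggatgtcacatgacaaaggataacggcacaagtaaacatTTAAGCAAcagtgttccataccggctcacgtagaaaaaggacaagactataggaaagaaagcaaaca
Klkb1: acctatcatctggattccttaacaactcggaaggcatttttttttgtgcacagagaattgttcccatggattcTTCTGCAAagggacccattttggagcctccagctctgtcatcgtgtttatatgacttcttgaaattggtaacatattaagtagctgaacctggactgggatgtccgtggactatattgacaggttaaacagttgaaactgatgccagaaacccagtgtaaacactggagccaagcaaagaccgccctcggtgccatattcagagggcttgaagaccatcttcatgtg
Each held 1 match, to the C/EBP-type motif, beginning 17 bases before the start of F11 and 177 before that of Klkb1. The motifs searched on both strands were CAAAGNNCA (HNF4-type), GTTAAT (HNF1-type), TTGCNNAA (C/EBP-type) and TTCNNNGAA (STAT3-type), in which N is any base, and matches may overlap. Promoters of 24 members were in the table, 25 sequences in all. The C/EBP-type motif was in 11 of the 25, the HNF4-type in 5, the HNF1-type in 3 and the STAT3-type in 1 (F9), and over all 32851 promoters in the table the shares were 10.8%, 6.36%, 7.10% and 8.30%. A match of letters is not a bound site.

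Of the contact system, Kng1 and Kng2, a duplicated pair of kininogen genes on chromosome 16, were measured along with Klkb1. Kng1 stood at 45337, 29171, 40839 and 37868 normalized counts in A to D and at 37189, 44606, 48913, 36266 and 32966 in E to I. B had the lowest and G the highest value, and the difference was 0.065 (-0.28 to 0.41, limma adjusted p = 0.912), or -0.14 without both. Kng2 was at 5192 ± 565 and 5500.1 ± 839 (0.076, -0.18 to 0.33). In the reference transcripts, 18.0% of the 50-base windows of the longest Kng1 transcript also occur in Kng2, and 18.2% the other way round, so reads could have been lost from or divided between these copies. Hrg, on the same stretch of chromosome 16, is 24.2 kb from Kng2.

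The anticoagulants of the liver differed little between groups, with log2 differences from -0.047 to 0.12 over 5 tested members. Serpinc1 encodes antithrombin, the main inhibitor of thrombin and factor Xa. It was at 35908, 32068, 36609.9 and 30266 normalized counts in A to D and at 33694, 37430.1, 39065, 33080.2 and 32193 in E to I, with D the lowest and G the highest. Its difference was 0.058 (-0.18 to 0.30, limma adjusted p = 0.883), and with 1 library left out at a time it ran from 0.0078 (without D) to 0.10 (without C). Serpind1 (heparin cofactor II) was at 9764 ± 1427 and 9937 ± 393, with 3.95% variation between sgCcnd1 animals, the lowest of any member in either group. Proc, the precursor of activated protein C, which cuts factors Va and VIIIa, was at 7254 ± 641 and 7520.2 ± 629 (0.052, -0.15 to 0.26). Serpina10 was at 2916 ± 232 and 2872 ± 674 (-0.047, -0.35 to 0.26), the larger SD in sgCcnd1 resting on library G. Serpina5 had 0 to 5 reads per library, too few to compare.

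Fibrinolysis divides into abundant plasma proteins and scarce activators. Plg, the precursor of plasmin, was at 49073, 31162, 42174 and 38219 normalized counts in A to D and at 39885, 43444, 52408, 41958 and 37352 in E to I. Again B was the lowest and G the highest, and the remaining 7 libraries lay between 37352 and 49073. The difference was 0.11 (-0.21 to 0.43, limma adjusted p = 0.821), and -0.081 without B and G. Hrg was at 21505, 14698, 17782 and 16963 in A to D and at 15274, 20222, 21748, 16331 and 15806 in E to I, with a difference of 0.0099 (-0.29 to 0.31, limma adjusted p = 0.985) and the same order of B and G at the ends. Serpinf2, the fast inhibitor of plasmin, was at 15007 ± 2102 and 14229 ± 1872 (-0.076, -0.34 to 0.19), and Cpb2 at 4455 ± 446 and 5032 ± 456 (0.18, -0.031 to 0.38, limma adjusted p = 0.520).

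Plat, which encodes tissue plasminogen activator, had the smallest p of the 31 members tested. Its normalized counts were 29.5, 36.8, 21.6 and 14.6 in A to D and 19.1, 13.4, 12.7, 13 and 7.10 in E to I, from 5 to 42 reads per library. Of the sgCcnd1 libraries 4 of 5 lay below the lowest control, and E lay inside the control range. The mean was 25.6 ± 9.64 in sgRosa26 (SD, n = 4) and 13.1 ± 4.24 in sgCcnd1 (SD, n = 5), a log2 difference of -0.90 (-1.59 to -0.21) with an unadjusted limma p of 0.0147 and a limma adjusted p of 0.338. It passed in none of the limma and edgeR alternatives, where its adjusted p ranged from 0.228 to 0.752. DESeq2 left its adjusted p undefined, so Plat was not judged there. Its unadjusted p was under 0.05 in 18 of its 20 alternatives, which share the same libraries, and its sign changed in 0. Plat was highest in library B, where the stellate and fibroblast list (8491 normalized counts) and the cholangiocyte and mesothelial list (2063) also had their highest sums. So did the T, NK and B cell list (297), the platelet list (226) and the red cell list (2436). Other lists did not peak in B. The endothelial list was highest in E (7382, with 6402 in B) and the Kupffer and macrophage list in D (6890, with 6173 in B). The monocyte and neutrophil list was highest in A (457, with 354 in B), as was the hepatocyte list. Over all libraries the stellate list summed to 5401 to 8491 in sgRosa26 and 4603 to 7063 in sgCcnd1, the cholangiocyte list to 966 to 2063 and 799.7 to 1226, and no gene of either was at 0 in all libraries. The T, NK and B cell list summed to 144 to 297 in sgRosa26 and 82.3 to 269 in sgCcnd1, and its 7 tested genes had a median log2 difference of -1.06. The part of any of these cells in the Plat values was not tested, and in whole tissue fewer cells of a type and less RNA per cell cannot be told apart. Plau (urokinase) was at 33.8 ± 15.2 and 26.0 ± 5.86 normalized counts (-0.30, -0.89 to 0.28), likewise highest in B at 56.1, and its receptor Plaur was at 13.5 ± 6.10 and 12.7 ± 5.22 (-0.11, -0.95 to 0.74). Under the alternatives Plau ran from -0.47 to -0.008. Plaur ran from -0.34 to 0.42, and its sign changed in 4 of 20.

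The vitamin K cycle is needed for prothrombin, factors VII, IX and X and proteins C and Z to bind calcium. Ggcx, the carboxylase, was at 1559, 1196, 1408 and 1295 normalized counts in A to D and at 1481, 1372, 1581, 1345 and 1456 in E to I, with B again lowest and G highest. Vkorc1, the reductase that regenerates the vitamin and is the target of warfarin, was at 1746, 2186, 1843 and 2171 in A to D and at 1644, 2024, 2140.1, 2124 and 1625 in E to I. B was its highest library, and I and E its lowest. The differences were 0.09 for Ggcx (-0.11 to 0.29, limma adjusted p = 0.741) and -0.059 for Vkorc1 (-0.30 to 0.19, limma adjusted p = 0.883), and in both genes the groups overlapped. With 1 library left out at a time Ggcx ran from 0.029 (without B) to 0.16 (without A) and Vkorc1 from -0.12 (without A) to -0.0035 (without I).

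Genes of the endothelium and vessel wall were measured at 4 to 279 reads per library, and 0 of 6 passed the test. F8, the cofactor missing in haemophilia A, was at 151, 146, 162 and 111 normalized counts in A to D and at 213, 118, 158, 156 and 183 in E to I, with a difference of 0.20 (-0.16 to 0.56, limma adjusted p = 0.680). Under 21 alternatives the F8 difference ran from 0.084 to 0.31. Vwf, the carrier of factor VIII, was at 88.4 ± 22.4 and 93.4 ± 22.1 (0.081, -0.35 to 0.51), and Tfpi, the inhibitor of the tissue factor complex, at 87.5 ± 22.4 and 89.1 ± 12.0 (0.052, -0.33 to 0.43). Under 20 alternatives Vwf ran from -0.12 to 0.22, with its sign changed in 4. Tfpi ran from -0.099 to 0.19, with its sign changed in 2. Thbd (thrombomodulin), which turns thrombin toward protein C, was at 36.1 ± 7.87 and 29.7 ± 6.45 (-0.28, -0.75 to 0.20), and Procr, the receptor that presents protein C to it, at 14.1 ± 6.95 and 9.12 ± 3.91 (-0.52, -1.46 to 0.42). These differences moved under 20 alternatives, from -0.39 to -0.14 for Thbd and from -0.92 to -0.27 for Procr. F3, the cellular trigger of clotting, was at 71.3, 84.1, 62.9 and 26.2 in A to D and at 59.5, 58.2, 56.8, 51.0 and 51.1 in E to I, close together in sgCcnd1 and spread widely in the controls. Without library D its difference went from -0.026 to -0.38 (limma adjusted p = 0.404). Over its 20 alternatives the difference ran from -0.38 to 0.17, above 0 in 7 of them, so no direction is given.

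Control library D had the lowest value among the controls for all 6 of these genes, and the lowest of all 9 libraries for F3, F8, Tfpi and Vwf. The sum of 15 endothelial markers was also lowest in D, at 5017 normalized counts, within 5017 to 7155 in sgRosa26 and 5144 to 7382 in sgCcnd1, and none of the 15 was at 0 in all libraries. Relative to 1000 counts of these markers, F8 in D was 22.1, next to 22.9, 22.9 and 22.7 in the other controls. On that scale D was still the lowest control for F3, at 5.23 against 8.79 to 13.1, and for Procr, at 0.968 against 2.19 to 3.02. Vwf, Tfpi and Thbd in D lay inside the range of the other controls. In sgCcnd1, F8 per 1000 marker counts was 22.8 in F and 25.6 to 31.2 in the other 4 libraries, which lay above every control. This ratio was chosen after the values were seen and was not tested.

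Further genes of the pathway were taken from lists. Of 26 other coagulation genes, 24 were tested, 13 with differences above 0 and 11 below, at a median of 0.013, and 0 passed the adjusted threshold. Fga, Fgb and Fgg encode the chains of fibrinogen, the substrate of thrombin. Fga was at 85009.9 ± 24539 and 89339.6 ± 21236 normalized counts, Fgb at 53232 ± 17169 and 59828 ± 12779, and Fgg at 47942 ± 13891 and 55516 ± 14864 (limma adjusted p = 0.912, 0.753 and 0.730). Each of the 3 was lowest in B and highest in G, as were Plg, Kng1 and Hrg. Anxa2, part of a cell-surface receptor for plasminogen and Plat, was the 1 gene of the 24 tested with an unadjusted limma p under 0.05, where 11% of all genes passed and 5.74% were lower. It was at 171, 331, 204 and 223 in A to D and at 206, 175, 149, 152 and 145 in E to I (-0.46, -0.84 to -0.076, limma adjusted p = 0.374), and like Plat it was highest in B. Of 9 genes for vitamin K supply, secretion and processing of clotting factors, 7 had differences above 0 and 2 below, where 52.9% of all genes lay above 0, with a median of 0.01. In this list Tpst2, a tyrosine sulfotransferase of the Golgi, was the 1 gene with an unadjusted limma p under 0.05 (background 11%) and did not overlap between groups (background 3.89%), at 445, 472, 481 and 531 in A to D and 439.9, 419.9, 437, 376 and 386 in E to I (-0.23, -0.42 to -0.039), and it too missed the adjusted threshold (limma adjusted p = 0.373).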

How the data were processed

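Per the submitters' processing notes, the tools used were Trim Galore 0.6.7, HISAT2 2.2.1, featureCounts 2.0.3, FastQC 0.74, MultiQC and DESeq2 2.11.40.8, with the mouse build mm10 (GRCm38). The annotation and the strand setting are not given in the sources used here. The deposited table holds a signal that is never negative, named normalized counts. In each library 100% of the values above 0 were whole multiples (tolerance 0.01) of the value of 1 read, so the authors' values are gene counts divided by 1 size factor per library.

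Values were transformed to log2(normalized count + 1), which understates changes of low genes. limma 3.58.1 (R 4.3.3; lmFit, eBayes with trend, two-sided, no covariates) was fitted to the 12993 genes whose mean reached 10, and p-values were adjusted over all of them (Benjamini-Hochberg, threshold 0.05). Alternatives were pseudocounts of 0.1 and 10, no filter, a minimum mean of 100, quantile normalization, a common 75th percentile, robust eBayes, leaving out libraries, and edgeR 4.0.16 (quasi-likelihood, TMM) and DESeq2 1.42.0 on recovered reads, checked on simulated counts. The value of 1 read in library H was 0.9996, near 1, and the count models were also repeated without H. Gene spans and exon lengths are from GENCODE M21 (GRCm38). The members and lists were chosen with earlier results of these data known. Values in every library are given for members with an unadjusted p under 0.05 or no overlap, both vitamin K genes and the 5 members with the highest mean; those of F11, Klkb1, F8 and F3 were added after they were seen. Of the other coagulation and the vitamin K lists, genes with an unadjusted p under 0.05 and the fibrinogen chains are named. Marker lists are given by counts, with some genes of the macrophage list named. The lists were other coagulation genes, vitamin K and secretion genes, acute-phase genes, and markers of hepatocytes, endothelium, macrophages, monocytes and neutrophils, platelets, stellate cells, cholangiocytes, lymphocytes and red cells. The labels number replicates without stating how they were bred or housed, so p-values measure the spread between these samples. Depth is the total of recovered reads.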

Additional observations from a re-analysis of the deposited data

Results flagged for a closer look

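Of 92 groups of 4 or 5 values examined for a library far from the others of its group, 5 had one, where chance gives about 4.6. Among them 0 were values of a single coagulation gene. In sgCcnd1, library G had a sum of 469164 normalized counts for the list of other coagulation genes, while its 4 companions had 315839 to 345708. For the acute-phase list, which shares the 3 fibrinogen genes with that list, G had 549603 against 337968 to 387999. Control library A had 12.2 M reads, and the other controls 16.2 to 16.6 M. In the same library the monocyte and neutrophil list summed to 457 normalized counts, against 344 to 354. In sgCcnd1 library E the T, NK and B cell list summed to 269, while the other 4 had 82.3 to 134.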

How the results depend on the processing

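The count of members called, 0 in either direction, was also 0 under each of the 21 alternatives; Plat, Plaur, Procr and Serpina5 have few reads, and what more depth would show was not tested. The fits without library H in the count models, and without B and G, were chosen after the data were seen. Without B and G, the difference of any gene lowest in B and highest in G had to fall. Over all genes, 1 was called lower by limma, and DESeq2 gave 76 (25 after dropping H), quantile normalization 2, edgeR after dropping H 0, and limma after dropping B and G 0. Dropping 1 library at a time gave 0 to 2 (1 without A or C, 2 without E or G, 0 without B, D, F, H or I). Called higher were 0 genes by limma, also with any 1 library dropped, while DESeq2 called 41, or 16 after dropping H. The cause of these gaps was not tested.

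Differences near 0 changed sign. Without B and G, Ggcx was at -0.0038, Plg at -0.081, Kng1 at -0.14, Serpinc1 at -0.0041 and Hrg at -0.15. With quantile normalization Serpinc1 was at -0.044 and Hrg at -0.011. Hrg was at -0.034 after rescaling to a common 75th percentile and at -9.9e-05 with edgeR. Dropping 1 library at a time gave a range of -0.0069 to 0.21 for Plg, -0.059 to 0.15 for Kng1, -0.076 to 0.11 for Hrg and -1.13 to -0.71 for Plat. Scaling shifted the split of the members from 21 above 0 and 10 below to 17 and 14 with quantile normalization, and that of all genes at an unadjusted p under 0.05 from 678 higher and 746 lower to 412 and 945 with the 75th percentile. Plat had no value with a minimum mean of 100, and no adjusted p with DESeq2. No paired analysis was possible because no column name holds a replicate label.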
